A study of Mus musculus with 6 samples.

Results

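Oxidative phosphorylation is carried out in mitochondria by 5 protein complexes, most of whose subunits are encoded in the nucleus. The nuclear genes were taken by name, as every gene symbol that begins with Nduf followed by a, b, c, s or v, the 4 Sdh subunits, and symbols that begin with Uqcr, with Cox4 to Cox8 and a letter, or with Atp5 and a letter. The rule found 92 of the 23420 genes in the files, and it used no measured value. The genes were assigned to complexes by name. Ndufa4, known as a subunit of complex IV, and its paralogue Ndufa4l2 were therefore counted in complex I, and the values by complex depend on this. Complex I held 45 of them (7 core subunits, 31 accessory subunits and 7 assembly factors). Complex II held 4, complex III 8, complex IV 18 and complex V 17.

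Complexes I and II take electrons from NADH and from succinate and pass them through coenzyme Q to complex III, and cytochrome c carries them on to complex IV, which reduces oxygen. The proton gradient built by complexes I, III and IV drives complex V, the ATP synthase. Core subunits carry the redox and proton-pumping sites, accessory subunits stabilise and regulate the complexes, and some accessory subunits come in isoforms that differ between tissues or with oxygen supply.

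RNA was sequenced from the tissue that forms the anterior hard palate, dissected at E14.5 from C57BL/6 mouse embryos, with 3 libraries in each of 2 groups. Mutants were Shox2Cre/-;Nkx2.5F/F and lacked functional Shox2, which encodes a homeodomain regulator of palate growth. Controls were Shox2Cre/+;Nkx2.5F/F and kept 1 intact Shox2 allele. Both groups carried 1 Shox2-Cre allele, which places Cre under the Shox2 locus, and 2 floxed Nkx2.5 alleles, so the controls were not wild type although their libraries are titled so. Whether a library holds 1 embryo or pooled embryos is not in the labels, and p-values measure only the spread between these libraries.

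Total counts were 52668242 to 53331397 in the mutants and 81950407 to 134813429 in the controls, so every control was deeper than every mutant. Shox2 stood at 5.3, 4.12 and 3.13 CPM (counts scaled to library size and by the trimmed mean of M-values) in the mutants and 88.2, 68.2 and 81.7 CPM in the controls, as the labels say. Mutant replicate 1 stood apart in its low counts, of which 99.7% were even numbers, against 73.0% and 65.9% in the other mutants and 63.6% to 64.5% in the controls. Levels of cell type markers in the dissected tissue also differed between the groups. Of all tested genes 24.1% rose and 21.7% fell at an adjusted p under 0.05 in edgeR. All 12 tested epithelial markers rose, with summed levels of 5934 to 6721 CPM in the mutants and 1094 to 1827 CPM in the controls. All 9 tested markers of multiciliated cells and all 11 tested markers of macrophages rose as well, with sums of 710 to 773 and 375 to 490 CPM in the mutants and 37.3 to 169 and 91.7 to 161 CPM in the controls. Of 11 tested osteoblast markers 10 fell, with sums of 473 to 617 CPM in the mutants and 1115 to 3728 CPM in the controls. Of 8 tested red blood cell markers 5 fell, with sums of 215 to 439 CPM in the mutants and 522 to 1002 CPM in the controls. Palatal mesenchyme markers were abundant in both groups, at 10230 to 11834 CPM in the mutants and 6702 to 15292 CPM in the controls. Of the 12, 4 were lower and 2 higher, 50% in all, against 45.8% of all tested genes. In bulk tissue, fewer cells of a type and less RNA per cell cannot be told apart, and the part of these differences in the results on respiratory genes was not tested.

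Most nuclear genes of oxidative phosphorylation stood lower in the Shox2 mutants. Of the 92 genes, 87 had enough counts to be tested, 53 of these fell and 4 rose at an adjusted p under 0.05 in edgeR's quasi-likelihood test, and 30 were not called. The share that fell was 60.9%, against 21.7% of all 16604 tested genes, and the share that rose was 4.6%, against 24.1% of all tested genes. Among all tested genes 45.8% were called in either direction. The median log2 fold change (mutant over control) was −0.34 over the 87 genes, and 80 of them had a value below 0. The fold change was at least 1.5-fold downward in 22 of the genes that fell, or 25.3% of those tested, against 8.29% of all tested genes. The mutant and control libraries did not overlap for 70 of the 87 genes (80.5%), against 58.9% of all tested genes.

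The summed level of all 92 genes was 7934, 7950 and 8651 CPM in the mutants and 10535, 10218 and 10458 CPM in the controls. The mutant mean was 8178 ± 409 CPM and the control mean 10404 ± 165 CPM (SD, n = 3 each), so the mutants held 78.6% of the control level. The groups did not overlap. The median deviation from the control mean over the tested genes was −0.42, −0.37 and −0.23 log2 units in mutant replicates 1, 2 and 3, and 0.01, −0.02 and 0.01 in the controls. Mutant replicate 3 was nearest to the controls. Without mutant replicate 1, whose low counts stood apart, 49 genes fell and 4 rose, at a median of −0.31. On leaving out each of the 6 libraries in turn, 42 to 56 genes fell and 2 to 4 rose, and 41 of the 53 genes that fell were called in every such fit.

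**Figure D1:**
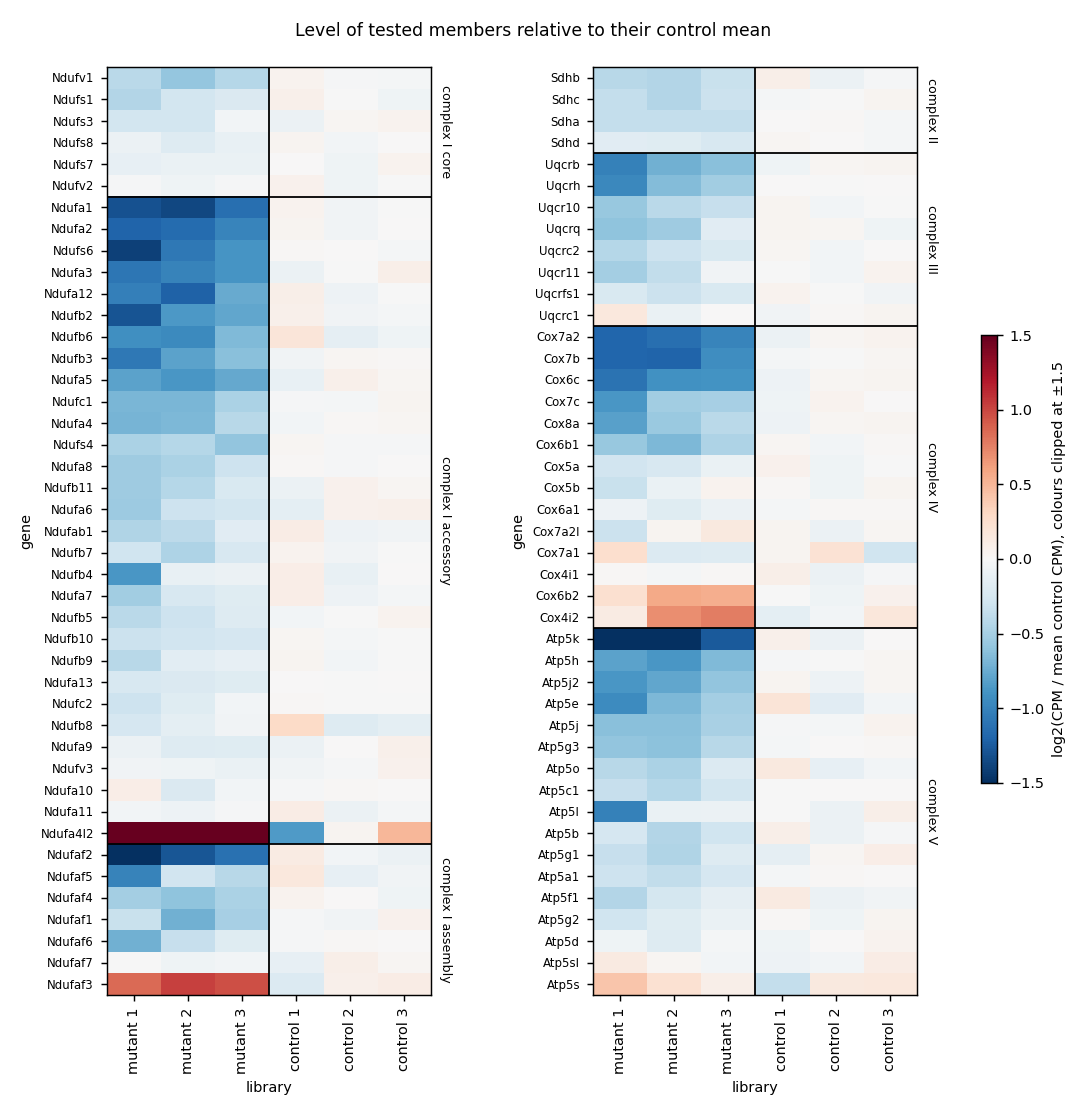
Tested genes, all but 1 of them, are rows grouped by complex, and each column a library, mutants left of controls. Colour gives the log2 ratio of a gene’s CPM to its control mean, clipped at 1.5 in either direction. The 3 mutant columns are mostly below 0, with library medians of −0.42, −0.37 and −0.23, and the few genes above 0 include Ndufa4l2 and Ndufaf3.

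**Figure D2:**
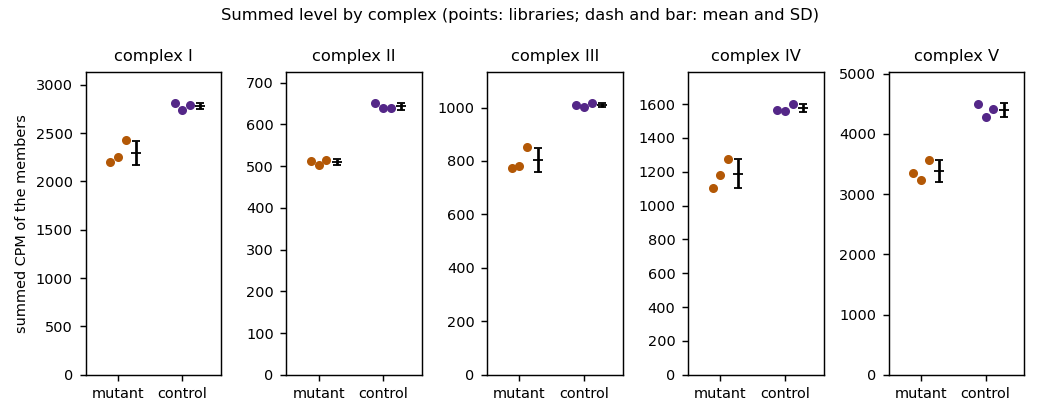
Summed CPM of each complex in each library, with mutants left of controls, points for libraries and a dash with error bar for the mean and SD (n = 3 each). Mutant sums lie below control sums in every complex, between 75.4% and 82.5% of the control mean. Ndufa4 and Ndufa4l2 are summed in complex I by name. The 82.5% is that of complex I, which stood at 77.6% without Ndufa4l2.

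Complex I, the NADH dehydrogenase, had 26 genes that fell (59.1%) and 2 that rose (4.55%) among 44 tested. Over all tested genes 21.7% fell and 24.1% rose. Its summed level was 2199, 2253 and 2433 CPM in the mutants and 2809, 2741 and 2792 CPM in the controls, or 82.5% of control. Without Ndufa4l2, which rose 8.11-fold, the sum was 77.6% of control. Of the 7 core subunits 2 fell (28.6%, against 21.7% of all tested genes), and the median log2 fold change of the 7 was −0.14. With a centred correction for GC content and length, 4 of the 7 fell, at a median of −0.24, and 22.1% of all tested genes fell. Ndufv1, which binds NADH and the flavin cofactor, had 83.4, 73.6 and 82.0 CPM in the mutants and 114, 109 and 108 CPM in the controls. It fell by 0.47 on the log2 scale (SE 0.07, edgeR adjusted p = 0.0019). Ndufs1, the subunit with the largest set of iron-sulfur clusters, also fell, to 80.9% of control. Ndufv2, another core subunit of the NADH-binding arm, had 94.2, 91.1 and 94.2 CPM in the mutants and 99.3, 91.4 and 95.2 CPM in the controls, which overlapped, and was not called (log2 fold change −0.03, SE 0.06).

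The accessory subunits of complex I had 21 of 30 tested genes lower (70.0%, against 21.7% of all tested genes). Only 1 was higher (3.33%, against 24.1%), and the median was −0.35. The fall was at least 1.5-fold in 11 genes (36.7% of those tested, against 8.29% of all tested genes). Ndufa1, a small membrane-arm subunit encoded on the X chromosome, had 17.0, 16.4 and 19.2 CPM in the mutants and 43.9, 40.7 and 42 CPM in the controls, and fell by 1.27 on the log2 scale (SE 0.09, edgeR adjusted p = 0.000234). Ndufa2, a subunit of the peripheral arm, had 43.8, 45.1 and 50.4 CPM in the mutants and 103, 96.9 and 101 CPM in the controls, and fell by 1.11 (SE 0.07). Ndufa3 fell to 50.5% of control and Ndufa5 to 57.0%. The lowest control lay above the highest mutant in all 4 genes, which were named for their small p. The groups did not overlap for 25 of the 30 tested accessory genes (83.3%), against 58.9% of all tested genes. Other accessory genes differed little, among them Ndufa10 (−0.05) and Ndufa11 (−0.04), and neither was called.

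Ndufs5, an accessory subunit of the intermembrane-space side, was listed at 0 in all 6 libraries. The files hold a processed pseudogene, BC002163, that matches Ndufs5 at 95% identity or more over at least 50% of its length. BC002163 had 19.1, 28.1 and 34.8 CPM in the mutants and 21, 29.6 and 26.4 CPM in the controls. Whether reads of Ndufs5 were assigned to BC002163 was not tested, so no level is given for Ndufs5.

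Assembly factors build complex I without being part of it. Ndufaf2, which acts late in assembly, had 6.87, 10.4 and 11.7 CPM in the mutants and 27.6, 24.6 and 23.8 CPM in the controls, and fell by 1.39 on the log2 scale (SE 0.20, edgeR adjusted p = 0.00165). Ndufaf4 fell to 69.2% of control and Ndufaf1, which helps to build the membrane arm, to 70.2%. Ndufaf3 went the other way, with 28.8, 32.6 and 31.3 CPM in the mutants and 13.9, 16.8 and 17.3 CPM in the controls, a rise of 0.95 (SE 0.12, edgeR adjusted p = 0.000876). Its exons overlap those of Impdh2 on the opposite strand, a purine synthesis gene that fell by 0.53. No source used here gives the strand setting of the read counter, and reads of overlapping genes cannot be told apart. Ndufaf3 and Ndufaf4 are known to act together in assembly, and here their fold changes had opposite signs.

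Complex II, succinate dehydrogenase, belongs to both the respiratory chain and the tricarboxylic acid cycle. All 4 of its genes fell, against 21.7% of all tested genes. Sdha, the flavoprotein that oxidises succinate, had 198 CPM in each mutant and 255, 256 and 248 CPM in the controls, and fell by 0.35 on the log2 scale (SE 0.06, edgeR adjusted p = 0.00242). Sdhb, the iron-sulfur subunit, had 97.4, 96.2 and 103 CPM in the mutants and 139, 123 and 129 CPM in the controls. The membrane anchors Sdhc and Sdhd fell to 77.4% and 87.3% of control. The call of Sdhd was lost with a replicate block (edgeR adjusted p = 0.0549), with scaling by library size only, with a Y-linked covariate, and without mutant 2, mutant 3, control 2 or control 3. No mutant overlapped a control for any of the 4 genes, and the groups did not overlap for 58.9% of all tested genes.

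Complex III, the cytochrome bc1 complex, had 6 of 8 genes lower (75.0%, against 21.7% of all tested genes) and none higher, at a median of −0.37. Uqcrb, which lies at the coenzyme Q site, had 46.0, 56.6 and 60.3 CPM in the mutants and 88.7, 95.1 and 95.4 CPM in the controls, and fell by 0.78 (SE 0.10, edgeR adjusted p = 0.00134). Uqcrh, the acidic hinge protein beside cytochrome c1, had 88.7, 111 and 121 CPM in the mutants and 175, 173 and 174 CPM in the controls. Uqcr10, a small subunit, fell to 74.0% of control. The 2 large core proteins parted, since Uqcrc2 fell by 0.32 while Uqcrc1 had 262, 220 and 236 CPM in the mutants and 226, 237 and 242 CPM in the controls (log2 fold change 0.03, SE 0.08). The difference between those 2 genes was not tested. Uqcrb has near-identical copies and an exon overlap on the opposite strand, so its reads could have been split or shared.

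Complex IV, cytochrome c oxidase, had 18 genes, of which 14 were tested. Of these 6 fell (42.9%, against 21.7% of all tested genes) and 2 rose (14.3%, against 24.1%). Its summed level was 1106, 1182 and 1276 CPM in the mutants and 1566, 1557 and 1602 CPM in the controls, or 75.4% of control. The median log2 fold change was only −0.16. By the name rule these values leave out Ndufa4, a known complex IV subunit, and its paralogue Ndufa4l2. The largest falls were in small subunits. Cox7a2 had 51.0, 53.2 and 58.8 CPM in the mutants and 110, 119 and 121 CPM in the controls, and fell by 1.11 (SE 0.08, edgeR adjusted p = 0.000234). Cox7b, on the X chromosome, had 56.8, 56.2 and 67.8 CPM in the mutants and 127, 129 and 132 CPM in the controls, and fell by 1.10 (SE 0.09). Cox6c fell to 51.1% of control and Cox6b1, which joins the monomers of the oxidase, to 67.7%. Cox8a, the ubiquitous form of subunit 8, had 117, 140 and 155 CPM in the mutants and 194, 210 and 212 CPM in the controls, and fell by 0.58 (SE 0.11). By contrast Cox4i1, the ubiquitous form of the largest nuclear subunit, had 239, 231 and 240 CPM in the mutants and 252, 223 and 234 CPM in the controls. Per kilobase of transcript it stood at 313 CPM in both groups, while Cox8a stood at 250 CPM in the mutants and 373 CPM in the controls. Its log2 fold change was −0.00 (SE 0.07), and its sign turned positive under several alternative settings. Cox6a1 (−0.12) and Cox7a2l (−0.03), a factor that joins respiratory complexes into supercomplexes, were not called.

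Complex V, the ATP synthase, had 11 of 17 genes lower (64.7%, against 21.7% of all tested genes) and none higher. The 17 include Atp5s (log2 fold change 0.25) and Atp5sl (0.04, annotated as Dmac2). These match by name but are not structural subunits, and neither was called. The other 15 genes all had values below 0. Its 17 genes supplied the largest summed level of the complexes, 3344, 3229 and 3572 CPM in the mutants and 4496, 4279 and 4410 CPM in the controls. The catalytic subunit gene Atp5b had 986, 865 and 952 CPM in the mutants and 1250, 1106 and 1159 CPM in the controls, and fell by 0.33 on the log2 scale (SE 0.09, edgeR adjusted p = 0.0224). The call of Atp5b was lost without mutant 2, mutant 3 or control 3, and with scaling by library size only. Atp5a1, its partner in the catalytic head, fell to 80.8% of control. The 5 genes of the catalytic F1 part summed to 80.0% of control and the 4 genes of the peripheral stalk to 73.6%. The 3 genes for subunits e, f and g, which lie where ATP synthase dimers meet, stood at 137, 177 and 196 CPM in the mutants and 308, 282 and 307 CPM in the controls, or 56.9% of control.

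Atp5k, which encodes subunit e, showed the largest fall of all 87 genes. It lies on chromosome 5 (chr5:108433244-108434448, minus strand, GRCm38). It had 28.3, 31.2 and 39.1 CPM in the mutants and 98.4, 87.4 and 94 CPM in the controls, a fall by 1.5 on the log2 scale (SE 0.12, edgeR adjusted p = 0.000279) to 35.3% of control. Atp5j2, subunit f, fell to 60.0%. Atp5l, subunit g, had 36.6, 68.6 and 69.2 CPM in the mutants and 73.4, 69.6 and 78.1 CPM in the controls and was not called, with mutant replicate 1 far below the other mutants. The peripheral stalk genes Atp5h and Atp5j fell to 58.4% and 66.9% of control. Atp5k, Atp5l and Atp5h have near-identical copies in the genome, between which reads could have been split. Exons of Atp5j overlap those of Gabpa on the opposite strand.

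The c ring, which turns as protons pass, is encoded by 3 genes whose mature proteins are the same. Atp5g3 had 207, 205 and 235 CPM in the mutants and 306, 315 and 318 CPM in the controls, and fell by 0.54 (SE 0.08, edgeR adjusted p = 0.00149). Atp5g1 fell to 80.0% of control, a call that was lost without mutant 1, mutant 2, control 2 or control 3, with scaling by library size only and with a Y-linked covariate. Atp5g2 had 91.3, 99.3 and 105 CPM in the mutants and 114, 108 and 116 CPM in the controls (edgeR adjusted p = 0.0618). It has near-identical copies, between which reads could have been split. Per kilobase of transcript, Atp5g3 made up 60.7% ± 0.947 of the 3 in the mutants and 66.0% ± 0.739 in the controls (SD, n = 3 each), and Atp5g2 34.1% ± 1.20 in the mutants and 29.1% ± 0.899 in the controls.

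**Figure D3:**
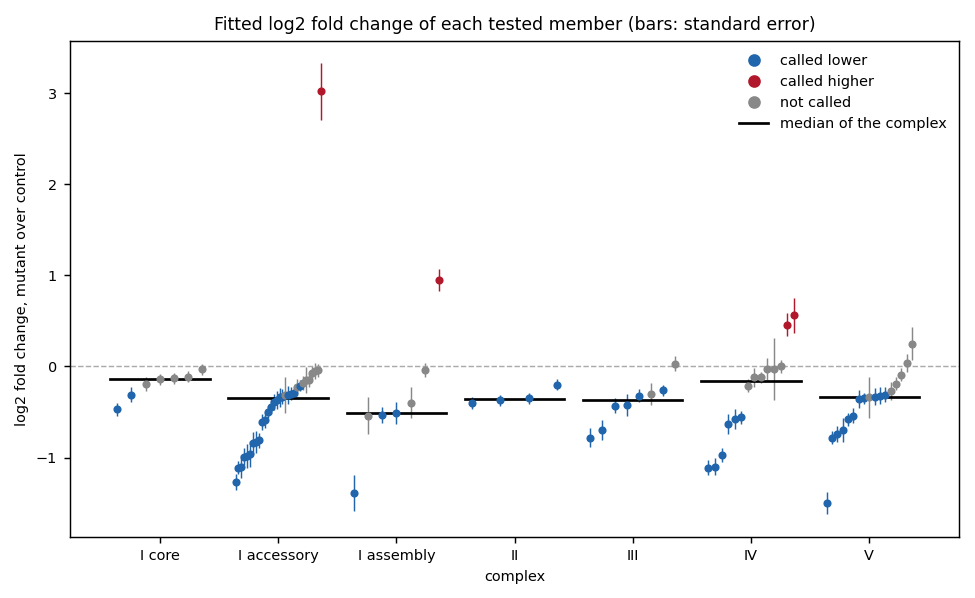
Log2 fold change (mutant over control) of each tested gene, by complex, with standard errors as bars, a black line at each group's median, a dashed line at 0, and genes called lower in blue, called higher in red and not called in grey. Most points lie below 0, from Atp5k at −1.5, and Ndufa4l2 stands alone at 3.02.

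The gene that rose most was Ndufa4l2, a paralogue of Ndufa4 known as a target of hypoxia-inducible factor 1. Ndufa4l2 lies on chromosome 10 (chr10:127514967-127517154, plus strand, GRCm38). It had 138, 148 and 170 CPM in the mutants and 10.4, 19.2 and 26.4 CPM in the controls, and rose by 3.02 on the log2 scale, or 8.11-fold (SE 0.31, edgeR adjusted p = 0.000506). Every mutant lay above every control, and the groups did not overlap for 58.9% of all tested genes. Ndufa4, named for complex I but known as a subunit of complex IV, had 96.2, 97.9 and 117 CPM in the mutants and 152, 158 and 159 CPM in the controls, and fell by 0.59 (SE 0.09). Per kilobase of transcript, Ndufa4l2 made up 42.7%, 44.0% and 42.9% of the pair in the mutants and 3.44%, 5.95% and 7.96% in the controls. The exact two-sided permutation test of this share gave p = 0.1, the smallest that 3 against 3 libraries allow. Exons of Ndufa4l2 overlap those of Shmt2 on the opposite strand, a mitochondrial serine hydroxymethyltransferase that rose by 0.58 (SE 0.11). Shmt2 had 144, 111 and 125 CPM in the mutants and 78.0, 87.8 and 88.5 CPM in the controls. Among 11 tested markers of endothelium and pericytes, where Ndufa4l2 is known to be expressed, 2 rose (18.2%, against 24.1% of all tested genes). They were the pericyte genes Rgs5 (1.06) and Notch3 (0.55), and the other 9, pericyte genes among them, were not called. The markers of this list summed to 1131 to 1352 CPM in the mutants and 929 to 1050 CPM in the controls. The part of these cells in the rise of Ndufa4l2 was not tested.

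The other 2 genes that rose were also isoforms of restricted expression, and both calls depended on single libraries. Cox6b2, the testis isoform of Cox6b1, had 12.1, 15.1 and 14.9 CPM in the mutants and 10.2, 9.74 and 10.7 CPM in the controls, and rose by 0.46 (SE 0.13, edgeR adjusted p = 0.0272). Cox4i2, a lung-enriched isoform of Cox4i1 linked to low oxygen, had 10.2, 15.1 and 15.9 CPM in the mutants and 8.47, 9.05 and 10.5 CPM in the controls, which overlapped (log2 fold change 0.56, SE 0.19, edgeR adjusted p = 0.0498). Both calls were lost on leaving out any 1 library other than mutant replicate 1. Per kilobase, Cox6b2 made up 12.8% ± 1.65 of its pair with Cox6b1 in the mutants and 6.74% ± 0.232 in the controls (SD, n = 3 each; exact two-sided permutation p = 0.1), and Cox4i2 5.67% ± 1.24 of its pair with Cox4i1 in the mutants and 3.93% ± 0.537 in the controls (exact p = 0.2).

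Heart and skeletal muscle use separate isoforms of complex IV subunits, and these were near the detection limit. Cox7a1 had 0.763, 0.555 and 0.558 CPM in the mutants and 0.656, 0.743 and 0.521 CPM in the controls, and was not called. Cox6a2 had 0, 0 and 1 counts in the mutants and 12, 2 and 4 counts in the controls, and Cox8b had 0 counts in every mutant and 6, 0 and 3 in the controls. Skeletal muscle markers summed to 9.19 to 14.6 CPM in the mutants and 12.9 to 86.9 CPM in the controls. Of 10 tested 6 were lower (60%, against 21.7% of all tested genes). The testis isoforms Cox8c, at 0 in all libraries, and Cox7b2, at 4 counts or fewer in any library, complete the 5 genes that were not tested.

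**Figure D4:**
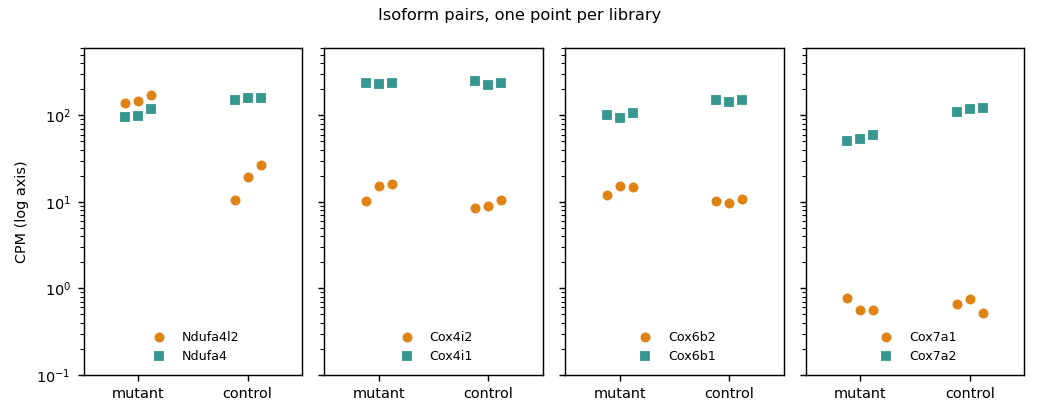
CPM on a log axis of isoforms and their ubiquitous partners in each library (circles for the restricted isoform, squares for its partner), mutants left of controls. Ndufa4l2 reaches the range of Ndufa4 in the mutants, at 138 to 170 CPM, while in the controls it stays at 10.4 to 26.4 CPM.

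Transcript length, taken as the mean of the annotated coding transcripts of a gene, was examined beside the fold changes. Of the 32 tested members under 700 bases, 23 fell (71.9%, median −0.58), of the 36 from 700 to 1500 bases 18 fell (50%, median −0.27), and of the 19 of 1500 bases or more 12 fell (63.2%, median −0.32). Other genes of the same length classes fell in 28.5%, 28.7% and 19.9% of cases, with medians of −0.22, −0.10 and 0.02. After a correction of each library for GC content and length, centred on all genes, the members' medians were −0.45, −0.27 and −0.36 in the 3 classes, and those of the other genes −0.05, −0.10 and 0.03. Without centring, that correction gave 78 lower and 2 higher members at a median of −0.63, and put the median of all tested genes at −0.249. Of the 60 tested members with neither an opposite-strand overlap nor a near-identical copy, 34 fell (56.7%) and 2 rose (3.33%), at a median of −0.33. Of all tested genes 21.7% fell and 24.1% rose.

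**Figure D5:**
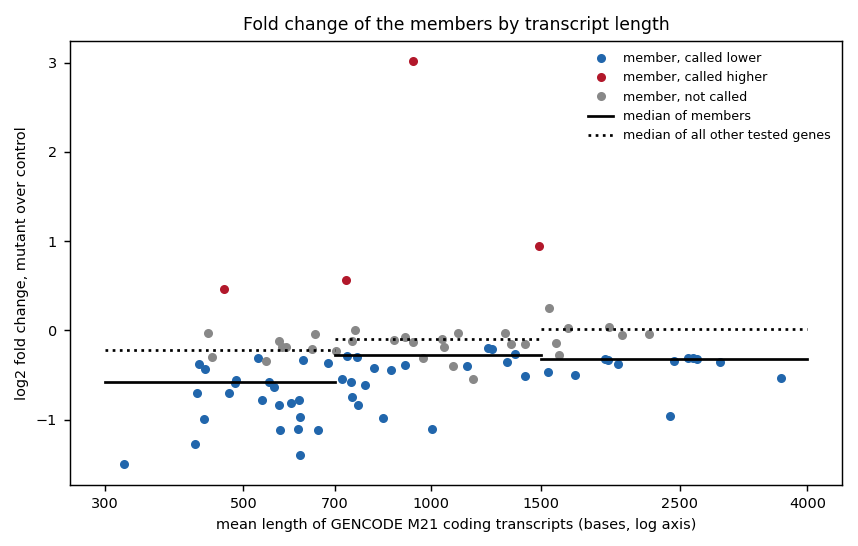
Log2 fold change (mutant over control) of each tested respiratory gene against its transcript length in bases on a log axis. Solid lines are their medians in the 3 length classes (−0.58, −0.27 and −0.32) and dotted lines those of all other tested genes (−0.22, −0.10 and 0.02), which lie above the solid ones in each class.

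Promoters of respiratory genes are known to be bound by NRF1, a transcription factor that recognises a palindromic GC-rich site, and the Nrf1 gene itself fell here. Windows of 280 bases, from 250 before the start site to 30 after it, were taken from RefSeq for GRCm38.p6, and 82 windows matched 76 of the 92 genes. The NRF1 letters GCGCATGCG, on either strand, were in 9 of the 82 windows (11%), against 547 of 32851 windows of all genes (1.67%). All 9 members with a match had log2 fold changes below 0. Of these, 3 were called lower (Atp5k, Ndufa8 and Ndufaf4) and 6 were not called (Atp5g2, Atp5l, Cox6a1, Ndufa11, Ndufaf5 and Uqcr11). Over all tested members 60.9% were called lower, and over all tested genes 21.7%. The 7 genes whose match lies wholly before the RefSeq start site are shown, 5′ to 3′ on the strand of the gene, with the match in capitals. They are shown because they carry the same letters and include genes that fell and genes that were not called. Overlapping matches on the 2 strands give 10 capitals in most of them.
Atp5k at chr5:108434424-108434465, minus strand: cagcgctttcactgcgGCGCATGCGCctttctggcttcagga
Ndufa8 at chr2:36049323-36049363, minus strand: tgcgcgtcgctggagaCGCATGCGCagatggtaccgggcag
Ndufaf4 at chr4:24897954-24897995, plus strand: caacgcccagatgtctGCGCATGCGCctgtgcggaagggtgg
Atp5g2 at chr15:102671064-102671105, minus strand: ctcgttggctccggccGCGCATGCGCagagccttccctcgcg
Atp5l at chr9:44920959-44920992, minus strand: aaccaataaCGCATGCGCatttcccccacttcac
Cox6a1 at chr5:115349095-115349136, minus strand: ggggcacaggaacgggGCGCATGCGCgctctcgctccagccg
Ndufa11 at chr17:56717686-56717727, plus strand: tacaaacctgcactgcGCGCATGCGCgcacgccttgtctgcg
The match began 50 bases before the RefSeq start site in Atp5k, 9 in Ndufa8, 113 in Ndufaf4, 42 in Atp5g2, 241 in Atp5l, 162 in Cox6a1 and 60 in Ndufa11. The GENCODE spans of Atp5k, Ndufa8 and Atp5g2 begin further upstream, so their matches lie in whole or in part inside those spans. The log2 fold changes were −1.5 for Atp5k, −0.44 for Ndufa8 and −0.53 for Ndufaf4, which fell. Those of the 6 genes that were not called were −0.54 for Ndufaf5, −0.34 for Atp5l, −0.30 for Uqcr11, −0.19 for Atp5g2, −0.12 for Cox6a1 and −0.04 for Ndufa11, so the values of the called and uncalled genes overlapped. Matches to YY1 (AAGATGGCG) and to ETS factors such as GABP (CCGGAAGTG) were in 2 windows each of the 82 (2.44%), against 1.05% and 1.95% of all windows. The core of hypoxia response elements, ACGTG, was in 21 windows (25.6%), against 18.5% of all. A match of letters is a description of the window and no evidence of binding.

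Beyond the named families, other genes of the pathway were read from lists. Of 12 tested further subunits and electron carriers, 6 fell (50%) and 2 rose (16.7%), at a median of −0.29. Over all tested genes 21.7% fell and 24.1% rose. Cycs, the cytochrome c that links complexes III and IV, had 29.0, 35.9 and 43.0 CPM in the mutants and 88.9, 83.4 and 86 CPM in the controls, and fell by 1.26 (SE 0.14, edgeR adjusted p = 0.000561). Atpif1, the inhibitor of ATP synthase, fell by 0.57. Gpd2, which feeds electrons from glycerol 3-phosphate to coenzyme Q, rose by 0.64 (SE 0.14), and Sqrdl, which feeds them from sulfide, by 0.90 (SE 0.29). Among 32 tested assembly factors outside the named families 12 fell (37.5%) and none rose. Those that fell included Coa3 (−0.60) and Cox16 (−0.76), both assembly factors of complex IV.

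The tricarboxylic acid cycle and pyruvate dehydrogenase showed 7 of 16 genes lower (43.8%) and 2 higher (12.5%), with a median of −0.19. Of all tested genes 21.7% were lower and 24.1% higher. The list's summed level was 2132, 2027 and 2107 CPM in the mutants and 2120, 2180 and 2190 CPM in the controls, which overlapped. Dld, the dihydrolipoamide dehydrogenase shared by several dehydrogenase complexes, fell by 0.48 and Fh1, fumarase, by 0.39. Ogdh, of the oxoglutarate dehydrogenase complex, rose by 0.39. Of 16 carriers, porins and import genes 10 fell (62.5%) and none rose, at a median of −0.32. Slc25a4, which exchanges ADP for ATP across the inner membrane, had 296, 304 and 313 CPM in the mutants and 500, 523 and 507 CPM in the controls, and fell by 0.75 (SE 0.06, edgeR adjusted p = 0.000322). Timm44, of the inner-membrane import motor, fell by 0.58.

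Of 17 regulators of mitochondrial biogenesis 8 were lower (47.1%, against 21.7% of all tested genes) and 2 higher (11.8%, against 24.1%). Tfam, which packages and transcribes mitochondrial DNA, had 42.8, 41.5 and 42.9 CPM in the mutants and 77.2, 60.9 and 63.3 CPM in the controls, and fell by 0.66 (SE 0.10, edgeR adjusted p = 0.00193). Ssbp1, the single-strand binding protein of mitochondrial DNA, fell by 0.62, Nrf1 by 0.35 and Gabpa by 0.22. Ppargc1a, a coactivator of mitochondrial genes, rose by 0.88 (SE 0.23, edgeR adjusted p = 0.0169), with 15.3, 14.8 and 12.5 CPM in the mutants and 10.1, 5.51 and 7.48 CPM in the controls. Esrra, a nuclear receptor that works with it, rose by 0.50. The coactivator and its partner receptor were higher while most respiratory genes were lower. The groups did not overlap for Ppargc1a, as for 58.9% of all tested genes. Transcripts of the mitochondrial genome were not analysed here.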

How the data were processed

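The deposited values are raw read counts for each gene symbol, in 1 file for each library. HISAT2, StringTie and the builds mm9 and mm10 are named per the submitters' processing notes. No source used here names the read counter, the annotation or the strand setting. The deposited counts went unchanged into edgeR 4.0.16 (R 4.3.3): filterByExpr by group, TMM scaling (factors 1.013 to 1.032 in mutants and 0.96 to 0.987 in controls), and the quasi-likelihood F test of mutant against control with no covariate, with Benjamini-Hochberg adjustment over all 16604 tested genes at 0.05. Levels are TMM-scaled CPM. Standard errors were taken from the F statistic. Alternatives used DESeq2 1.42.0, limma 3.58.1, other scaling, filters and covariates, a replicate block, thinned counts, and left-out libraries.

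The members and the lists were chosen with earlier results of these data known. In each complex, the called genes with the smallest p in each direction (up to 4) and the most abundant gene per length are named by rule, with up to 2 per direction in each pathway list and isoforms in full. A few genes named by this rule are left out of the text. Genes outside this rule were chosen after their values were seen (Ndufv2, Ndufa10, Ndufa11, Uqcrc1, Cox7a2l, Atp5a1, Atp5l, Nrf1, Gabpa, Rgs5, Notch3, and copies, overlapping genes or genes with a promoter match). All 92 members matched GENCODE release 21 on GRCm38, which gave lengths and overlaps, and 22 overlapped an exon on the opposite strand. Near-identical copies, which 12 members have, were found with blastn at 95% identity over 50% of the length. The test was checked on simulated counts with known changes in a small part of the genes. There 30.7% of changes of 1.5-fold, 71% of 2-fold changes and 93.9% of 4-fold changes were recovered, and 8.04% of calls were false. Low counts that are mostly even may not be independent reads, and counting error may then be understated. This was not tested.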

Additional observations from a re-analysis of the deposited data

How the results depend on the processing

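Against 53 lower and 4 higher members (median −0.34), leaving out 1 library at a time gave 42 to 56 lower, 2 to 4 higher and medians of −0.40 to −0.31, and of all genes 5780 to 7659 were called. Of the 53 lower members 37 were called lower under all 19 alternatives, and of the 4 higher ones Ndufa4l2 and Ndufaf3 were. Scaling by library size only, which puts the median of all tested genes at 0.064, gave a median of −0.27. The uncentred GC and length correction puts the median of all tested genes at −0.249, and gave 78 lower and 2 higher members at a median of −0.63, with 2873 higher and 6650 lower genes in all, against 3999 and 3607. A covariate for Y-linked expression gave 45 lower and 2 higher members. Correlations of deviations between libraries of the same number were weak, at 0.083, 0.102 and 0.035. Each mutant correlated best with the control of its own number, whereas control 3 correlated best with mutant 2 (0.039). Whether the numbers mark pairs cannot be told from these values. With a replicate block 51 members were lower and 4 higher. The log2 fold change of Cox4i1 turned positive, to 0.00 with DESeq2 size factors, DESeq2 or the replicate block, 0.07 with library size only, 0.03 with the 1 CPM filter or without replicate 1 of both groups, 0.06 with the centred GC and length correction with or without the block, 0.01 in thinned counts, and 0.02 and 0.04 without mutant 2 and control 1, in a range of −0.04 to 0.04 over the left-out libraries. Cox6a1 came to 0.02 under the centred correction with or without the block. Cox7a1 came to 0.04 with library size only, 0.06 under the centred correction with or without the block, 0.11 with the Y-linked covariate, and 0.04 to 0.09 without mutant 2, mutant 3 or control 2, in a range of −0.20 to 0.09. None of these 3 genes was called in those fits, and the cause of each shift was not tested. With limma-voom the call of Cox4i2 was lost (adjusted p = 0.0587). Over 39 named tested members and 19 alternatives, 678 of 740 values kept direction and call, 35 lost the call, 7 gained it and 20 turned sign. The simulated counts held no change under 1.5-fold, and a far smaller share of their genes changed than was called here. The shares recovered there therefore need not hold for these data.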
